A study of Caenorhabditis elegans with 2 samples.

Results

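The cuticle collagen genes of Caenorhabditis elegans were examined for peaks of the F44E2.7 protein in L4 larvae. They were chosen by name, as all nuclear protein-coding genes whose symbol starts with col-, rol- or sqt-, plus bli-1, bli-2 and 11 dpy genes, which gave 176 of 19973 genes. The data came from whole worms of strain OP381 in 1 group of 2 biological replicates. The worms carried the integrated transgene wgIs381, which encodes F44E2.7 with a TY1, EGFP and 3xFLAG tag, together with unc-119(+) as a marker in an unc-119(tm4063) background. They had been bleached, starved as L1 larvae and grown to L4 larvae at 48 hours. Of the antibody, the description says anti-GFP and the antibody field says F44E2.7. No untagged worms were analysed here. The transgene adds copies of the gene to the worm's own, which limits the strain as a model of the untagged protein. The whole organism was used, so a peak cannot be assigned to the epidermis or to any other tissue. No RNA was measured, so how strongly these genes were transcribed in these larvae is unknown from these data.

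The cuticle is the outer skeleton of the worm and is made mostly of collagens that the epidermis secretes and crosslinks. Each collagen chain has stretches of the repeat Gly-X-Y, in which X and Y are often proline or hydroxyproline, and chains wind into a triple helix. A new cuticle is laid down at each larval stage, and collagen genes are switched on in waves before each molt. Furrow collagens, among them DPY-7 and DPY-10, form the circumferential grooves, and loss of one makes worms short and fat (dumpy). Roller and squat genes give worms that turn about their long axis or are short, and BLI-1 and BLI-2 build the struts between cuticle layers, whose loss gives blisters. Of the 176 genes chosen by symbol, rol-3 encodes a receptor tyrosine kinase and col-99 a transmembrane collagen, so neither is a cuticle collagen.

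A peak is a stretch of genome where immunoprecipitated DNA is enriched, and its summit is the highest point. The promoter window of a gene was taken as the stretch from 1000 bp before to 200 bp after its start. With both replicates used, the authors' thresholded list held 896 peaks, their conservative list 864, that of replicate 1 alone 178 and that of replicate 2 alone 319. A second kind of list ranks 108809 weak and strong peaks of both replicates by IDR (irreproducible discovery rate). This rate is low where a peak ranks both high and similarly in repeated peak calls. The authors' threshold equals an IDR of 0.01. The signal of a peak is the authors' own value on a scale that is not stated, and it was compared only within a list. Unless an overlap is named, a replicate's value is the best in the same window or coding exons in that replicate's ranked list. No file gives read counts, so depth is unknown. Intervals are exact Clopper-Pearson 95% intervals that cover counting error over genes only, and genes are not independent replicates. The limit given with a count of 0 is instead 3 counts of the total.

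The sequences behind the main results are given here for ce11 (WBcel235), 5′ to 3′ on the coding strand of the collagen gene, each covering 50 bp to either side of a summit. The first set shows the summits of highest ranked signal in the promoter windows of col-185, col-104 and dpy-10, all on the minus strand. Capitals mark GAGAG and the tRNA gene B box pattern GTTCAANNC, 2 of the 4 patterns searched. In col-185, bases 8 to 79 are a tRNA gene.
col-185 promoter window, chrX:13511948-13512048: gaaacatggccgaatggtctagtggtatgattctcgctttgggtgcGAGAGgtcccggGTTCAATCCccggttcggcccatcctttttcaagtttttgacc
col-104 promoter window, chrIV:1355196-1355296: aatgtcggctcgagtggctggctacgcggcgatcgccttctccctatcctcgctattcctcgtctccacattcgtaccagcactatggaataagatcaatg
dpy-10 promoter window, chrII:6712448-6712548: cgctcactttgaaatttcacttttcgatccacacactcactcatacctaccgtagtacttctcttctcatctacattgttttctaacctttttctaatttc

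The second set shows 3 summits inside coding exons, those of col-105 and col-104 on the minus strand and that of col-146 on the plus strand. Capitals mark in-frame GGN codons, which encode glycine, and show the collagen repeat directly under the summit.
col-105 coding exon, chrIV:1358162-1358262: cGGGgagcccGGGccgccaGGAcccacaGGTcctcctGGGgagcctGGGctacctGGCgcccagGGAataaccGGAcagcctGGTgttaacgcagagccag
col-146 coding exon, chrV:9630649-9630749: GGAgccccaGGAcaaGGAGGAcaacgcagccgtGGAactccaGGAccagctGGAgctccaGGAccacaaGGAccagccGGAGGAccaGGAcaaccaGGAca
col-104 coding exon, chrIV:1353800-1353900: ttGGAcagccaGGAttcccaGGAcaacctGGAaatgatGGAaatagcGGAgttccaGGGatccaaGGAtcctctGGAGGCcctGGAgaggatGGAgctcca

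Promoter windows of collagen genes held thresholded summits about as often as those of all genes, with no test made. Only col-185 and col-104 of the 176 collagen genes held a thresholded summit there, or 1.14% (95% interval 0.138 to 4.04), against 301 of all genes, or 1.51%. In the conservative list the count was again 2 collagen genes, against 1.48% of all genes. In the list of replicate 2, 1 collagen gene (col-185), or 0.568%, had such a summit, against 0.551% of all genes. In the list of replicate 1 there were 0 of 176, which allows a share of up to 1.70%, against 0.29% of all genes.

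The strongest promoter peak, at col-185, lay inside a tRNA gene and not at the collagen gene's start. Its signal was 127, the highest among the collagen genes and at percentile 99.7 of all genes with a ranked summit in their window. In the single-replicate ranked lists the signal at col-185 was 49.0 in replicate 1 and 71.3 in replicate 2, at percentiles 99.2 and 99.6. The gene lies at chrX:13510035-13511097 on the minus strand, and the summit at position 13511998 was 901 bp upstream of its start. That position is base 44 of the 72 bp tRNA-Pro gene H06A10.t1 (chrX:13511970-13512041, minus strand), outside any protein-coding gene. The sequence given above carries the B box pattern GTTCAANNC in bases 59 to 67. The other thresholded promoter summit, at col-104 (chrIV:1353636-1355305, minus strand), had a signal of 77.9 at percentile 98.5. It lay 59 bp into the gene, in its own coding exon, and 168 bp from the tRNA pseudogene F58F6.t1 (chrIV:1355414-1355486). In the ranked lists of the replicates, col-104 had signals of 35.5 in replicate 1 and 44.8 in replicate 2.

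Small RNA genes (here tRNA, snRNA and snoRNA genes and tRNA pseudogenes) within 200 bp of the summit thus accompanied both thresholded promoter summits of the collagen genes. Among all 301 genes with a thresholded promoter summit, 81, or 26.9%, had one near a small RNA gene only. With such peaks left out, 0 of 176 collagen genes had a thresholded promoter summit, which allows a share of up to 1.70%, against 1.1% of all genes. In the ranked list, the best promoter summit was near a small RNA gene for 2 of 143 collagen genes, or 1.40%, against 1.31% of all genes.

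Ranked summits were common in the promoter windows of collagen genes with signals in the range of other genes. In the ranked list of both replicates, 143 of 176 collagen genes had a summit, or 81.2% (74.7 to 86.7), against 74.3% of all genes. In the ranked list of replicate 1, 106 collagen genes had one, or 60.2%, against 55.4% of all genes, and in that of replicate 2, 114, or 64.8%, against 58.9%. A total of 79 of 176 collagen genes, or 44.9%, had a summit in both single-replicate lists, against 7977 of 19973 genes of all kinds. In neither list were 35 collagen genes, or 19.9%, a count that was not made over all genes, so it does not show a trait of collagen genes. Summits were about as dense in the promoter windows of collagen genes, at 1.10 per kb, as in those of all genes, at 1.07 per kb, or in the genome, at 1.09 per kb. The best signal of the 143 collagen genes had a median of 29.7 (quartiles 21.5 and 40.4), against 30.1 (21.6 and 40.1) for all genes. It was above the all-gene median for 71 of 143, or 49.7% (41.2 to 58.1), where 50% of all genes lie by definition. It was in the highest 10% of all genes, above 51.0, for 9 of 143, or 6.29% (2.92 to 11.6).

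**Figure D1:**
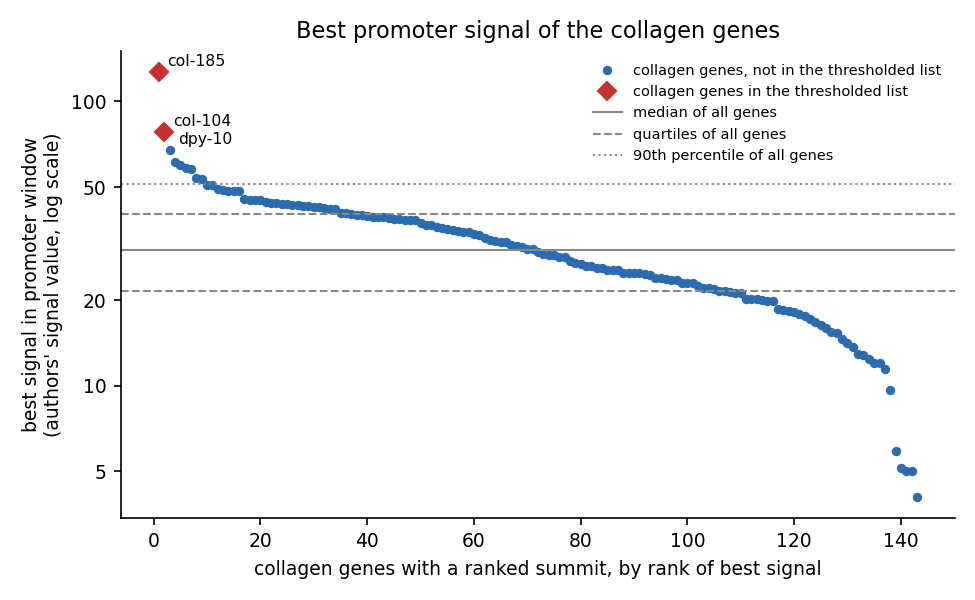
Best promoter signal (authors' signal value, log scale) of each of the 143 collagen genes with a ranked summit, by rank, with diamonds for the 2 in the thresholded list and lines for the median, quartiles and 90th percentile of all genes. The col-185 and col-104 genes stand above the rest at 127 and 77.9, and the lowest, col-181, is at 4.08.

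Furrow collagens spanned nearly the whole range of promoter signal. All 6 had a ranked summit, with signals between 5.13 and 67.2 and a median of 27.9, and 3 lay above the all-gene median. The highest was dpy-10, at 67.2 (percentile 97.2), with 30.8 in replicate 1 and 31.4 in replicate 2. Its summit was 271 bp upstream of the start of the gene, which lies at chrII:6710149-6712227, and inside an intron of T14B4.19. Next came dpy-7, whose product marks the furrows, with 58.3 at a summit 38 bp inside the gene, in a coding exon. The ranked peaks that overlap it had 26.3 in replicate 1 and 27.1 in replicate 2, and the best in the window in replicate 2 had 35.0. The dpy-3 gene had 30.2, close to the all-gene median, and dpy-8 had 25.6, with no summit in the window in either single-replicate list for either gene. The dpy-2 gene had 20.2 and dpy-9 had 5.13, at percentile 0.977. Genes whose products act in the same structure thus lay at opposite ends of the ranking. Both of these low peaks had an IDR of 0.711 and no overlapping ranked peak in replicate 1. The dpy-2 summit, 942 bp upstream, was also the best of T14B4.19, whose start is nearer. In replicate 2 the dpy-9 window had 13.3, at percentile 14.9.

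Other dumpy collagens also split into high and low. The dpy-13 gene had 57.6, with 22.4 in replicate 1 and 30.7 in replicate 2, at a summit 26 bp upstream that is also the best one of its neighbour zipt-2.2. The dpy-17 gene had 50.9, and its percentile was 88.8 in replicate 1 but 47.3 in replicate 2. The dpy-14 gene had 19.8 and dpy-5 had 18.3. No ranked summit of both replicates lay in the window of dpy-4, which had 17.8 in replicate 1 alone.

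Roller and squat genes lay nearer the middle. All 7 had a ranked summit, with signals between 22.9 and 45.1 and a median of 31.3, and 4 lay above the all-gene median. The rol-6 gene, whose dominant allele is a widely used transgenesis marker, had 45.1, sqt-2 had 43.7 and sqt-3 had 42.5. The receptor gene rol-3 had 31.3, sqt-1 had 27.5, rol-1 had 24.8 and rol-8 had 22.9. Of the strut collagens, bli-1 had 26.7, and bli-2 had no ranked summit of both replicates, with 16.0 in replicate 2 alone. The summits of rol-3, sqt-1 and bli-1 each lay in a coding exon of another gene. Nearest to those of rol-3 and sqt-1 were the starts of C16D9.3 and rmd-3. The bli-1 signal of 26.7 equals the best coding exon signal of col-80.

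Genes named col made up the bulk, with 125 of 156 holding a ranked summit, a median of 29.7 and 62 above the all-gene median. After col-185 and col-104, the highest were col-71 at 61.1, col-98 at 59.9, col-138 at 53.9, col-129 at 53.4, col-157 at 51.0 and col-103 at 49.3. The lowest were col-51 at 5.03, col-54 at 5.02 and col-181 at 4.08. The adult-stage collagen gene col-19 had 23.1, at percentile 29.3, with window bests of 16.3 in replicate 1 and 15.7 in replicate 2. The 33 genes with no ranked summit were 31 col genes, dpy-4 and bli-2.

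**Figure D2:**
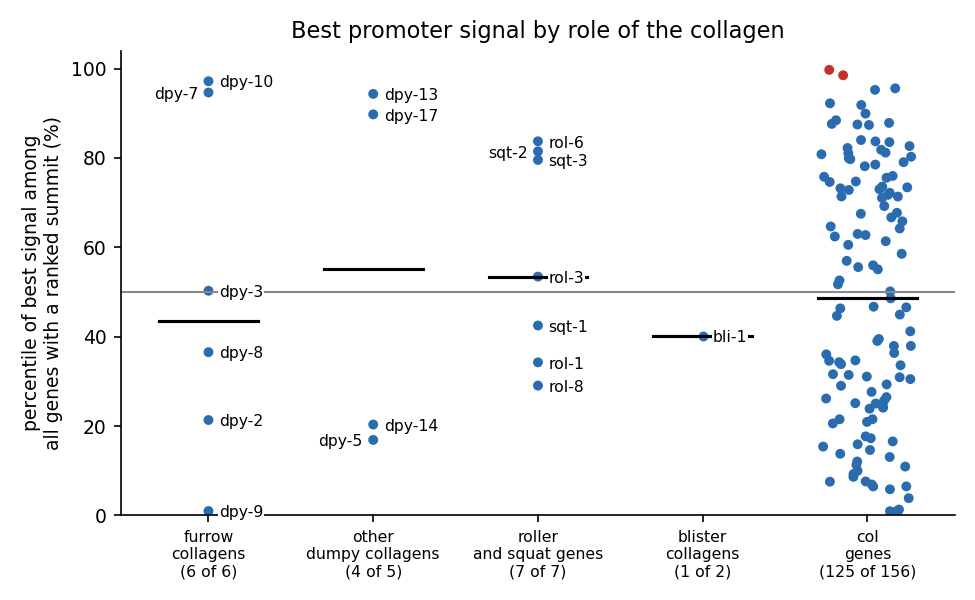
Percentile of each collagen gene's best promoter signal among all genes with a ranked summit, by role, with black bars for the medians and the grey line at 50% for all genes. The furrow collagens run from dpy-9 at 0.977% to dpy-10 at 97.2%, and red points are the 2 genes in the thresholded list.

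The replicates' promoter rankings were compared next. Inside the threshold were col-185 with an IDR of 0.000759 and, nearest to it, col-104 with 0.00717, and nearest outside were dpy-10 with 0.0272, col-142 with 0.0278 and col-98 with 0.0345. With dpy-7, these make 6 collagen genes at an IDR of 0.05 or lower, or 3.41% (1.26 to 7.27), against 4.03% of all genes. Across the 79 collagen genes in both single-replicate lists, Pearson's r between the replicates' signals was 0.424 and Spearman's rho 0.228, given as a description of genes that share 2 libraries. The same values over 7977 genes of all kinds were 0.524 and 0.289. The best promoter peak was overlapped by a ranked peak in both replicates for 57 of 143 collagen genes, or 39.9%, against 41.6% of all genes, and in neither for 18, or 12.6%, against 14.8%. Signals above the 75th percentile of all 3 ranked lists were found for 8 of 176, or 4.55%, against 4.91% of all genes. These 8 were col-185, col-104, dpy-10, col-98, dpy-7, col-129, col-142 and col-43. The col-142 summit, 871 bp upstream, lay in a coding exon of another gene and nearest to the start of col-141. Its signal of 48.3 equals the best coding exon signal of col-141. The col-43 peak was nearest to the start of sth-1 and also the best of that gene, with no overlapping ranked peak in replicate 1. The col-129 summit was nearest to the start of dlc-2. The col-103 gene was high in replicate 1 alone, with 26.3 in replicate 1 (percentile 86.1) and 12.5 in replicate 2 (percentile 12.3).

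**Figure D3:**
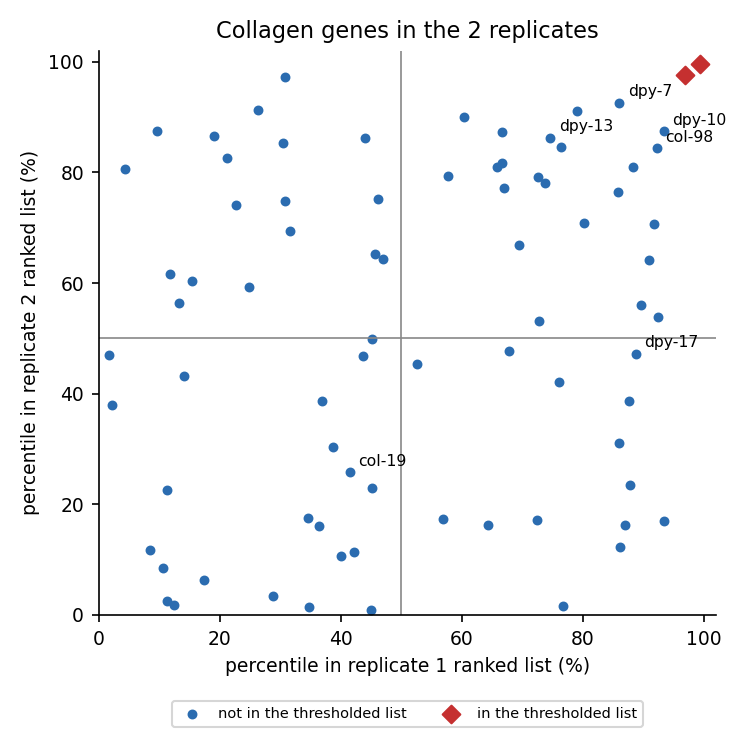
Percentile of the best promoter signal in the ranked list of replicate 1 (horizontal axis) and replicate 2 (vertical axis) for the 79 collagen genes in both. The diamonds are col-185 and col-104, near the top of both lists, while dpy-17, at 88.8% in replicate 1, is at 47.3% in replicate 2.

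The best promoter summits of collagen genes lay a median of 349 bp upstream of the start, against 380 bp for all genes. The share from 250 to 1 bp upstream was 26.6% (19.5 to 34.6) for the collagen genes and 20.1% for all genes. The gene's own start was the nearest one for 129 of 143, or 90.2%, against 81.8% of all genes, and the peak was also the best of another gene's window for 15, or 10.5%, against 17.3%. The summit lay outside any protein-coding gene for 78, in an intron of another gene for 21, in a coding exon of another gene for 17 and in the gene's own coding exon for 16. These places were not counted for all genes, so the counts do not show a trait of collagen genes. GC content within 50 bp of the summit averaged 41.6% ± 8.68 (SD, n = 143 genes), against 40.7% ± 8.71 for all genes (SD, n = 14834 genes). Signal and GC content had Pearson's r of 0.309 over the 143 collagen genes and 0.350 over all genes, as a description.

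Letters searched on both strands within 50 bp of these promoter summits were about as frequent at collagen genes as elsewhere. The GATA-type sequence TGATAA was found at 16 of 143 collagen genes, or 11.2% (6.53 to 17.5), against 7.44% of all genes. The repeat GAGAG was found at 30, or 21.0% (14.6 to 28.6), against 17.6% of all genes. The B box patterns GTTCAANNC and GTTCGANNC were found at 2, or 1.40%, and 1, or 0.699%, against 1.44% and 1.17% of all genes. A match is a run of letters and not a shown binding site.

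The coding exons of collagen genes differed from their promoter windows. They were looked at after the promoter results were known, because a wider region, from 2000 bp upstream of the gene start to the gene's end, held thresholded summits at 17 of 176 collagen genes, or 9.66% (5.73 to 15.01), against 4.26% of all genes. Inside coding exons, 12 of 176 collagen genes held a thresholded summit, or 6.82% (3.57 to 11.6), against 142 of all genes, or 0.711%. Away from small RNA genes the count was again 12, against 0.691% of all genes. The conservative list held such summits for 14, or 7.95% (4.42 to 13.0), against 0.751%. Collagen genes are compact, with a median of 914 bp of coding exons, against 990 bp for all genes. Per Mb of coding exon, there were 83.4 thresholded summits in collagen genes and 6.27 in all genes.

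The 12 genes were 11 collagen genes and the receptor gene rol-3, spread over 4 chromosomes. The highest signal was that of col-105 (chrIV:1357736-1359225), at 103.2, 1013 bp into the gene, with ranked peaks of 43.1 in replicate 1 and 54.4 in replicate 2 overlapping it. Next was col-104 at 85.4, 1455 bp into the gene, with no overlapping ranked peak in replicate 1 and 49.99 in replicate 2. That summit had an IDR of 0.00998, just inside the threshold, and no peak of the conservative list overlapped it. The col-146 gene followed at 84.5, with 36.8 in replicate 1 and 49.6 in replicate 2. The col-104 gene held a second coding exon summit, the one near its start described above. The others, by their highest coding exon signal, were col-130 at 77.9, col-163 at 77.7, rol-3 at 77.6, col-162 at 75.2, col-99 at 74.9, col-156 at 72.4, col-48 at 72.3, col-111 at 72.0 and col-77 at 68.7. The col-130 summit also lay within the span of ugt-65, and the col-48 summits within that of mek-2, so those summits may belong to either gene. Whether they lay in coding exons of ugt-65 or mek-2 was not counted. In all there were 15 summits, because col-104 had 2, as did col-163 and col-48, whose second summits had signals of 14.002 and 10.8. In col-163 both summits had overlapping replicate peaks of 39.3 and 40.7, and in col-48 both had 28.8 and 48.9. These second summits may thus not be separate peaks, but they are counted in the summits per Mb and the codon and GC shares. At an IDR of 0.001 or lower, 0 of the 176 genes had a coding exon summit, against 0.0451% of all genes. The thresholded lists of single replicates held 0 of 176 collagen genes in replicate 1, which allows a share of up to 1.70%, and 1 (col-104) in replicate 2, or 0.568%. All genes stood at 0.0501% in replicate 1 and 0.12% in replicate 2.

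With weaker peaks included, the collagen genes' share was also above that of all genes, by a smaller ratio. A summit at an IDR of 0.05 or lower lay in the coding exons of 35 of 176 collagen genes, or 19.9% (14.3 to 26.6), against 4.21% of all genes. Any ranked summit was found in 160 of 176, or 90.9% (85.7 to 94.7), against 70.5%. The best coding exon signal of the 160 collagen genes had a median of 46.0 (quartiles 37.1 and 57.2), against 33.9 (24.5 and 43.8) for all genes with one. It was above the all-gene median for 131 of 160, or 81.9% (75.02 to 87.5), where 50% of all genes lie by definition, and in the highest 10% of all genes, above 53.5, for 51, or 31.9% (24.7 to 39.7). Each replicate showed this on its own. In the ranked list of replicate 1, 108 of 156 collagen genes, or 69.2% (61.4 to 76.4), lay above the all-gene median for coding exons, and in that of replicate 2, 117 of 154, or 76.0% (68.4 to 82.5), against 50% of all genes in both. The best coding exon signal exceeded the best promoter signal in 111 of the 138 collagen genes with both, or 80.4%, against 52% of all genes with both.

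**Figure D4:**
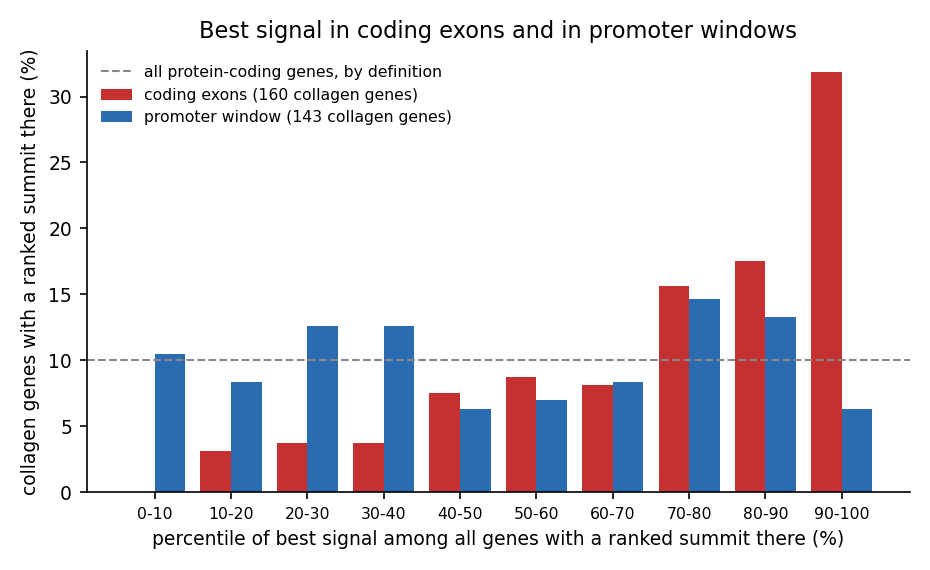
Share of collagen genes in each 10% of the all-gene ranking by best signal, for coding exons (red, 160 genes) and promoter windows (blue, 143 genes), with the dashed line at the 10% of all genes. Coding exons put 31.9% of collagen genes in the highest 10%, and promoter windows 6.29%.

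Coding exon signal was high across most roles. Among the furrow collagens, 5 of 6 lay above the all-gene median, led by dpy-7 at 58.3, which is the same summit as in its promoter window, followed by dpy-10 at 53.8, dpy-8 at 51.4, dpy-2 at 43.0 and dpy-3 at 38.9, with dpy-9 at 31.5. Among the roller and squat genes, 6 of 7 did, with rol-3 at 77.6, sqt-3 at 61.7, sqt-2 at 47.2, rol-1 at 47.0, rol-8 at 43.9 and rol-6 at 41.6 above it, and sqt-1 at 33.6 just below. Of the strut collagens, bli-1 had 73.4, with 42.7 in replicate 1 and 27.7 in replicate 2, and bli-2 had 36.7. Each value is the highest of a gene's summits, and coding lengths differ. The rol-3 gene had 13 ranked summits in 7443 bp of coding exons, bli-1 5 in 2844 bp and sqt-3 2 in 903 bp. The part of length in these values was not tested. The other dumpy collagens were lower, with dpy-17 at 49.95, dpy-5 at 46.0, dpy-13 at 24.3 and dpy-14 at 23.1, and dpy-4 had no ranked coding exon summit of both replicates. The adult collagen gene col-19, low in its promoter window, had 59.3 in its coding exons, at percentile 94.8, with 29.3 in replicate 1 and 31.6 in replicate 2. The median was above that of all genes on each of the 6 chromosomes, from 40.1 on chromosome III, against 35.3 for all genes, to 54.9 on chromosome IV, against 33.7.

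The collagen coding sequence itself is rich in G and C. Coding exons had a median GC content of 54.9% (quartiles 51.8 and 58.5) in collagen genes, against 42.5% (39.5 and 45.9) in all genes. GGN glycine codons made up 19.6% of codons in the collagen genes and CCN proline codons 14.7%, against 5.36% and 4.91% in all genes. Within 50 bp of the 15 thresholded coding exon summits, the shares were 29.7% and 22.1%, against 13.98% and 11.2% over the whole coding sequence of the same 12 genes, which include the long rol-3. GC content at the 15 summits had a median of 61.4% (lowest 48.5, highest 70.3). At the 155 such summits of all genes, which include these 15, the median was 51.5% (quartiles 45.5 and 56.4). The col-105 summit, with 10 GGN codons in 33, had 70.3%, and that of col-146 had 13 in 33. An exception was the summit near the start of col-104, with 1 glycine codon in 33, and that of rol-3, which is no collagen, had 5 in 33.

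Signal was also compared among genes of like coding GC content. Between the collagen genes' own quartiles of coding GC, 7 of 88 collagen genes held a thresholded coding exon summit, or 7.95%, against 24 of 796 other genes, or 3.02%. There the median best coding exon signal was 45.2 in collagen genes, against 41.3 in the other genes, so the gap was smaller than that over all genes. The collagen genes were also longer there, with a median coding length of 912 bp, against 513 bp for the other genes, and per Mb of coding exon they held 96.6 thresholded summits, against 41.6 in the other genes. Ranked summits at like GC content did not differ in that direction, at 1.93 per kb of coding exon in the collagen genes, against 2.08 in the other genes. Over the 160 collagen genes, Pearson's r between coding GC and best coding exon signal was 0.117 and Spearman's rho 0.131, and over 14080 genes of all kinds they were 0.322 and 0.322, as a description. The sources used here do not say how reads from these related, repetitive sequences were placed, and the part of this in the result was not tested.

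**Figure D5:**
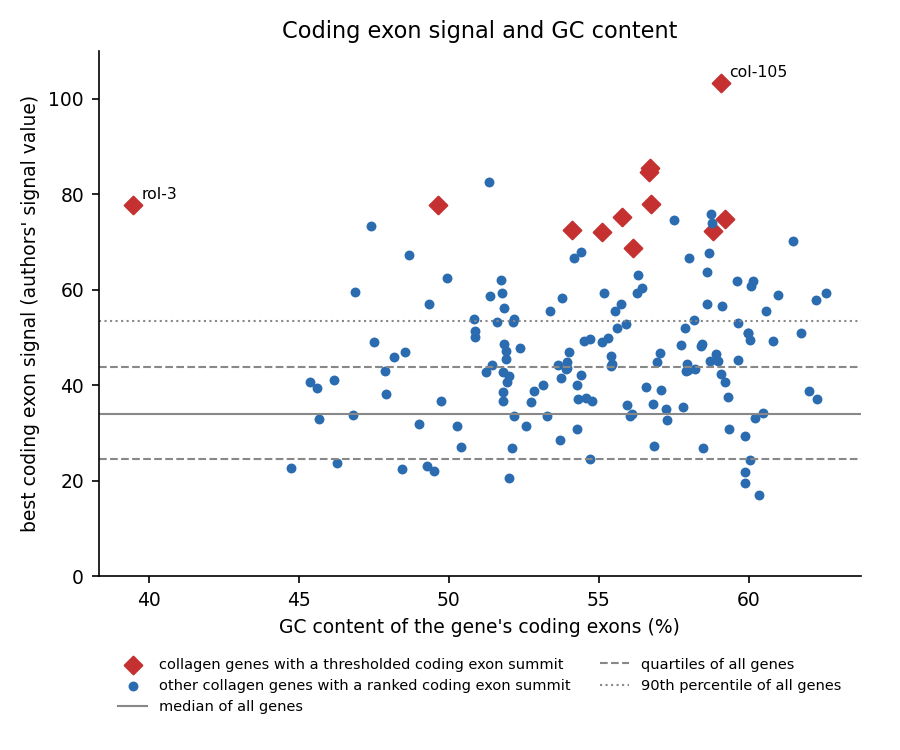
Best coding exon signal (authors' signal value) against GC content of the coding exons for the 160 collagen genes with a ranked coding exon summit, with diamonds for the 12 with a thresholded one and lines for the median, quartiles and 90th percentile of all genes. Most points lie above the all-gene median of 33.9, with col-105 highest at 103.2 and the receptor gene rol-3 at the lowest GC content, 39.5%.

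Introns and upstream DNA of collagen genes carried the remaining thresholded summits, all near small RNA genes. The highest in the wider region, at 189, lay 1858 bp upstream of col-94, in the snRNA gene W05B2.8 (chrIII:10989679-10989780) inside dhc-4. Summits within introns were at 112.5 in col-85, 4 bp from a tRNA-Ile gene, at 96.8 in col-99 and 83.0 in col-54, each in a tRNA-Arg gene, and at 79.7 in col-72, in a tRNA-His gene. Of the 17 collagen genes with a thresholded summit in the wider region, 5 had them near small RNA genes only, or 29.4%, against 30.7% of the 851 genes of all kinds.

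Other genes of the cuticle pathway are given beside all genes, of which 74.3% had a ranked promoter summit and 1.51% a thresholded one. Lists this small can say little about a share as low as 1.51%. Among 15 genes that process collagen, such as prolyl hydroxylase and peroxidase genes, 13 had a ranked summit, 0 a thresholded one and 7 a signal above the all-gene median, with a median of 35.2. Among 44 genes of other cuticle structure, such as cuticlins, 37 had a ranked summit and 16 lay above the median, with a median of 27.7 and 1 thresholded summit, at cutl-23 with 89.9. Among 10 regulators of molting and epidermal fate, 8 had a ranked summit and 6 lay above the median, with a median of 37.5, led by myrf-1 at 56.0 and nhr-23, a nuclear receptor of the molting cycle, at 48.0. The basement membrane collagen genes emb-9, let-2 and cle-1, which are not cuticle genes, had a ranked summit in 2 of 3 genes and a thresholded one in 0. Among markers of tissues, 4 of 5 epidermal, 2 of 3 intestinal, 3 of 3 muscle, 3 of 3 germline and 2 of 4 neuronal genes with a ranked summit had a promoter signal above the all-gene median, and 1 (the intestinal asp-1, at 97.4) was thresholded.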

How the data were processed

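Chromatin immunoprecipitation and sequencing of tagged F44E2.7 gave 8 deposited peak lists on ce11, per the labels, from 2 biological replicates. The sources used here name no aligner or peak caller and do not say how the possible control experiment that the labels mention was used. The deposited signal values and scores are the authors' own per peak, and the deposited -log10 q-values and -log10 IDR values were not rescaled. No list gives counts, so depth is unknown. Of 987 ranked peaks at an IDR of 0.01 or lower, the thresholded list holds 896.

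Gene starts and coding exons came from Ensembl release 115 on WBcel235, small RNA genes from Ensembl and RefSeq, and sequences from the RefSeq genome of that assembly. No RefSeq promoter or protein table was used. The search of promoter windows was tested on simulated peaks, which did not cover the counts in coding exons or the wider region. Counts over the collagen genes are set beside all protein-coding genes, with no test. The members and lists were chosen with earlier results of these data known, and the wider region and the coding exons were added after the data were seen. Named genes were those in a thresholded list, the 12 highest and 4 lowest by promoter signal, all dpy, rol, sqt and bli genes, col-19 and up to 3 on either side of the threshold. Genes named for coding exons were chosen after their values were seen. Alternatives covered other windows, lists and IDR thresholds, peaks near small RNA genes and each replicate alone. The scripts ran under Python 3.11.15 with matplotlib 3.10.9, scipy 1.17.1, pandas 2.3.3 and numpy 2.4.6.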

Additional observations from a re-analysis of the deposited data

How the results depend on the processing

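The count of collagen genes with a thresholded promoter summit was 2 in the text. With a window of 500 bp upstream to 100 bp downstream it was 1, or 0.568%, against 0.871% of all genes. With 2000 bp upstream to 500 bp downstream it was 6, or 3.41%, against 2.68%. From 2000 bp upstream to the gene's end it was 17, or 9.66%, against 4.26%. It was 0 without peaks near small RNA genes, against 1.1% of all genes. At an IDR of 0.001 or lower it was 1, or 0.568%, against 0.36%, and at 0.05 or lower 6, or 3.41%, against 4.03%. Without replicate 1 it was 1, or 0.568%, against 0.551%, and without replicate 2 it was 0, against 0.29%. The share with a promoter signal above the all-gene median, 49.7% in the text, was 59.1% with the window of 2000 bp upstream to 500 bp downstream, and stayed between 46.2% and 52.8% under the other 9 alternatives. The count of collagen genes with a ranked promoter summit was between 106 and 159 under 9 alternatives, or 60.2% to 90.3%. Over all genes the share was between 53.4% and 83.8% under the same alternatives. The count with a thresholded coding exon summit was 12 in the text. At an IDR of 0.05 or lower it was 35, or 19.9%, against 4.21% of all genes, and at 0.001 or lower 0, against 0.0451%. Without replicate 1 it was 1, or 0.568%, against 0.12%, and without replicate 2 it was 0, against 0.0501%. The lists of single replicates hold fewer peaks. The coding exon count was 10 to 14 in the conservative list, without rol-3 and col-99, without peaks near small RNA genes or by peak overlap. By peak overlap it was 14, or 7.95%, against 1.41% of all genes. Under the others of these settings, all genes stood at 0.691% to 0.751%. No paired analysis was possible because the 2 replicates form 1 group and nothing is compared between groups of samples. With 2 replicates and no read counts, no SD over replicates is given. No untagged worms were analysed here and the use of a control is not stated, so the background under a peak is unknown.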
